A study of Danio rerio with 15 samples.

Results

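The genes igf1, hsd17b3 and inhbaa encode a growth factor, a steroid enzyme and a subunit of an activin, and each read lower in the brains of female zebrafish than in those of males. They were chosen by their female and male levels in these same fish, so their sex difference is described here and not tested. By the gene symbols of the array annotation they have 4 probe sets, 1 each for igf1 and hsd17b3 and 2 for inhbaa, of 15502 probe sets and 8793 genes tested in all. A probe set is a group of short probes that together read 1 transcript, and its level is given on a log2 scale, on which a difference of 1 is a doubling. For inhbaa the brighter probe set is the main one and the dimmer one is given beside it.

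The 15 brains, 1 per array, came from sexually mature fish of the strain labelled Transgenic Mosaic 1, about 1 year old, with no further allele or agent named. The control food held 1.4 ppm selenium, and the selenium food was brought to 5.6 ppm with sodium selenite; both were fed over 14 days. Of the females, 3 ate control food and 4 selenium food, and of the males 4 ate each. Sex was crossed with diet to show how the brain responds to the supplement in each sex.

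Insulin-like growth factor 1, the product of igf1, is made under growth hormone in the liver and also locally in many tissues, and in the brain it promotes the growth and survival of neurons. The product of hsd17b3 is a hydroxysteroid dehydrogenase that reduces androstenedione to testosterone, and in mammals it is known mainly from the testis. The product of inhbaa is the beta A subunit, of which a pair forms activin A, a ligand of the transforming growth factor beta family. Activin binds receptors that activate Smad2 and Smad3, and follistatin traps it outside the cell. Growth factors, steroids and activins act in the pituitary and gonads as well as in the brain, and a whole-brain sample averages over all cell types. In such bulk samples, fewer cells that express a gene and less of its RNA per cell cannot be told apart.

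The arrays were alike, with medians between 7.22 and 7.33 log2 units and correlations between any pair from 0.979 to 0.992. Neuronal genes were bright in all of them, with a list mean of 11.97 ± 0.06 (SD, n = 7) in females and 12.05 ± 0.06 (n = 8) in males. The summed linear level of 20 muscle genes ran from 1837 to 3804 in the 7 females, from 2077 to 2869 in male controls and from 2595 to 36809, in replicate 1, in males on selenium. That of 15 retina and lens genes ran from 333 to 3473 in females, from 339 to 833 in male controls and from 423 to 10095 in males on selenium, with replicates 2 and 4 highest at 10095 and 5961. All 20 muscle genes and 14 of the 15 retina and lens genes averaged lower in females. The number of fish limits the precision.

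By the mean difference igf1 stood farthest apart between the sexes of the 3 genes, though on selenium the gap between the fish of both sexes was wider for inhbaa. In females on the control diet the 3 levels were 5.94, 6.28 and 5.86 log2 units, and in females on selenium the 4 levels were 5.81, 5.74, 6.63 and 6.39. In males on the control diet they were 7.04, 7.02, 7.82 and 7.10, and in males on selenium 6.76, 7.34, 6.71 and 7.27. Every female lay below every male, on either diet. The gap between the highest female and the lowest male was 0.08 over all fish, and on the control diet alone it was 0.73. Both fish beside the narrow gap were on selenium. Every female lay below every male in 0.213% of all probe sets tested, in 4.26% on the control diet alone and in 5.07% on selenium alone.

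For igf1 the log2 difference, female minus male, was -1.22 ± 0.25 (SE, n = 3 and 4) on the control diet and -0.88 ± 0.23 (n = 4 and 4) on selenium. Averaged over the diets it was -1.05 ± 0.17, so that the male level was 2.06 times the female level on the linear scale. Group means ran from 7.25 ± 0.39 (SD) in control males over 7.02 ± 0.33 in males on selenium and 6.14 ± 0.44 in females on selenium to 6.03 ± 0.22 in control females. Within either sex the diets differed by less than the SD of either group. Sex accounted for 71.9% of the variance of igf1 over the 15 fish and diet, taken over both sexes together, for 1.38%. The highest fish, control male replicate 3 at 7.82, stood 0.72 above the next of its group, and without it the difference on the control diet was -1.02.

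**Figure D1:**
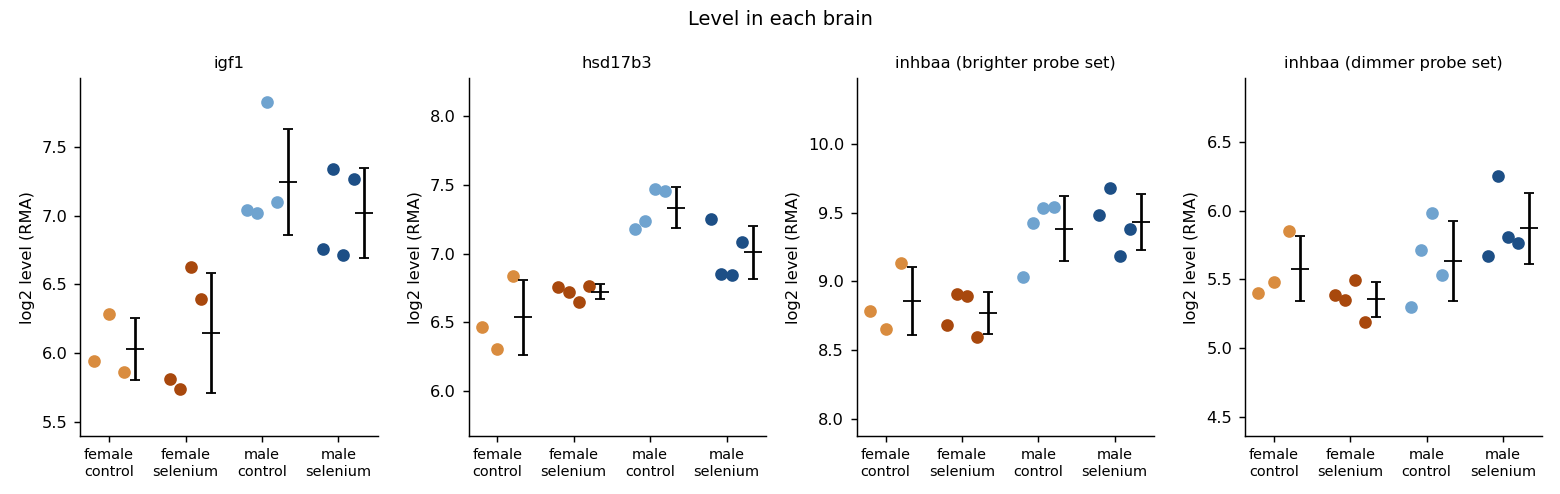
Log2 level (RMA) of each probe set in each of the 15 brains, as points by sex and diet, with the group mean and SD in black (n = 3 control females and 4 in each other group) on vertical axes of equal span. The igf1 points of females all lie under those of males, while the dimmer inhbaa probe set overlaps between the sexes on the control diet.

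The steroid enzyme gene hsd17b3 was read farther apart between the sexes on the control diet than on selenium, a contrast that was not tested. Control females read 6.46, 6.30 and 6.84, and control males 7.18, 7.24, 7.47 and 7.45. Females on selenium read 6.76, 6.72, 6.65 and 6.77, the tightest group, and males on selenium 7.25, 6.85, 6.85 and 7.08. Every female again lay below every male, but over all fish the gap was only 0.0052, between control female replicate 3 and male selenium replicate 3. Within each diet the gap was 0.34 on the control diet and 0.08 on selenium. In 0.4% of all probe sets every female lay below every male of the same diet on both diets, with igf1 and hsd17b3 among them.

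The female minus male difference of hsd17b3 was -0.80 ± 0.13 (SE, n = 3 and 4) on the control diet, where the male level was 1.74 times the female level. On selenium it was -0.28 ± 0.12 (n = 4 and 4), a ratio of 1.22, and averaged over the diets it was -0.54 ± 0.09. The order of the group means was control males (7.33 ± 0.15, SD), males on selenium (7.01 ± 0.20), females on selenium (6.72 ± 0.06) and control females (6.54 ± 0.28). The lower 2 groups differed by less than the SD of control females but by more than that of females on selenium. The 2 male groups differed by more than the SD of either. Sex accounted for 62.8% of the variance over the fish and diet, taken over both sexes together, for 3.57%. That diet share leaves out opposite differences, selenium minus control, of 0.19 in females and -0.33 in males.

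The activin subunit gene inhbaa was read by 2 probe sets, which differed in how far they set the sexes apart. By the brighter one, control females read 8.78, 8.65 and 9.13 and females on selenium 8.68, 8.91, 8.89 and 8.59. Control males read 9.03, 9.42, 9.53 and 9.54 and males on selenium 9.48, 9.68, 9.18 and 9.38. On selenium the sexes were apart by 0.27. On the control diet they overlapped, because control female replicate 3 lay above control male replicate 1. The female minus male difference was -0.53 ± 0.15 (SE, n = 3 and 4) on the control diet and -0.66 ± 0.14 (n = 4 and 4) on selenium. Averaged over the diets it was -0.59 ± 0.10, a male level 1.51 times the female level, and sex accounted for 72.4% of the variance. Both male groups, at 9.43 ± 0.21 (SD) on selenium and 9.38 ± 0.24 on the control diet, differed by less than their SDs, as did both female groups, at 8.86 ± 0.25 on the control diet and 8.77 ± 0.16 on selenium.

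The dimmer inhbaa probe set gave the same order on selenium and nearly no difference on the control diet. Control females read 5.40, 5.48 and 5.85 and control males 5.30, 5.71, 5.98 and 5.53, so that the groups overlapped throughout. Females on selenium read 5.38, 5.35, 5.50 and 5.19, all below males on selenium at 5.67, 6.25, 5.81 and 5.76. The difference was -0.05 ± 0.17 (SE) on the control diet and -0.52 ± 0.16 on selenium, and -0.29 ± 0.12 averaged over the diets. On the control diet the difference turned to 0.034 without control female replicate 1 and to 0.063 without control male replicate 3. It lay between -0.19 and -0.01 without any 1 of the other control fish. Sex accounted for 29.5% of the variance of this probe set.

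**Figure D2:**
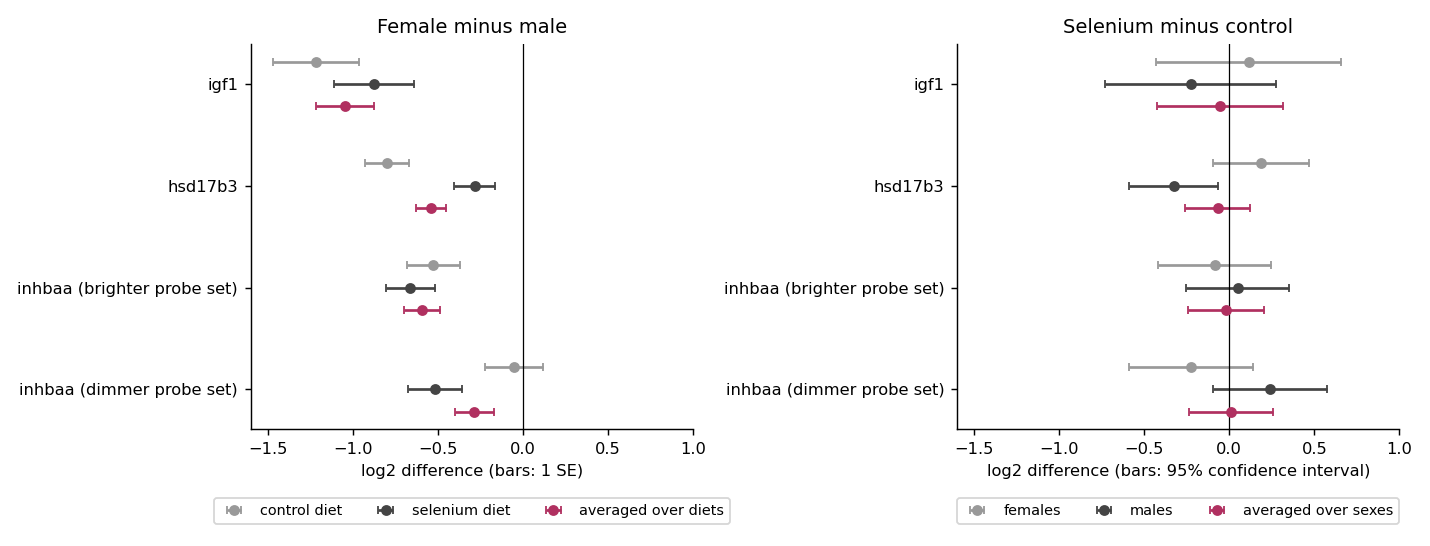
Log2 differences of the 4 probe sets. The left panel shows female minus male with bars of 1 SE, by diet and averaged over diets, and the right panel selenium minus control with 95% confidence intervals, by sex and averaged over sexes. On the left the igf1 points lie farthest from 0, and on the right every interval crosses 0 except that of hsd17b3 in males.

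Of all probe sets tested, limma called 22, or 0.142%, between the sexes averaged over the diets at an adjusted p under 0.05, with 17 lower in females (0.11%), while 2296 had an unadjusted p under 0.05. Each of the 3 genes was among these when it was chosen, so nothing is read from their share. The number called was 64 without female selenium replicate 3 and 20 to 28 without control female replicate 3, female selenium replicate 2 or control male replicate 2. It fell to between 2 and 10 without any 1 of the other 11 fish. On the control diet alone 0.0% were called, with 0 probe sets at an adjusted p under 0.05 and 890 at an unadjusted p under 0.05, and 6 were called without control female replicate 3. On selenium 1.05% were called, 162 in all (2877 at an unadjusted p under 0.05), against 315 without control female replicate 3, 328 without female selenium replicate 3, and 2 to 102 without any 1 of the other fish. By size of the difference averaged over the diets, igf1 ranked 24, the brighter inhbaa probe set 113 and hsd17b3 150 among all probe sets from the lowest in females upward.

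A sign of RNA quality moved with sex in the arrays of fish on selenium, while on the control diet the sexes overlapped. Control probe sets read gapdh at both ends of its transcript, and a 3′ level far above the 5′ level marks degraded or shortened RNA. This gapdh difference, 3′ minus 5′, was 1.19 ± 0.37 (SD, n = 3) on the log2 scale in control females and 1.59 ± 0.24 (n = 4) in females on selenium. In control males the value was 1.04 ± 0.16 (n = 4) and in males on selenium 0.93 ± 0.21 (n = 4). On selenium the sexes did not overlap, at 1.33 to 1.84 in females and 0.66 to 1.17 in males. On the control diet females read 0.98, 0.97 and, in replicate 3, 1.61, and males read from 0.89 to 1.26. Across the 15 fish, deviations of this value from its group means correlated with those of igf1 at r = -0.59, of hsd17b3 at 0.61 and of inhbaa at 0.21, all 3 over the same arrays.

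With the gapdh value as a covariate, the igf1 difference was -0.30 ± 0.30 (SE) on selenium in place of -0.88, and -1.09 ± 0.22 on the control diet. For hsd17b3 the covariate gave -0.57 ± 0.16 on selenium in place of -0.28, and for inhbaa -0.78 ± 0.22. Averaged over the diets the values were -0.70 ± 0.20 for igf1, -0.72 ± 0.11 for hsd17b3 and -0.67 ± 0.15 for inhbaa. The part of RNA quality in the sex differences was not tested, and on selenium, where the sexes did not overlap in the gapdh value, it and sex cannot be told apart.

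**Figure D3:**
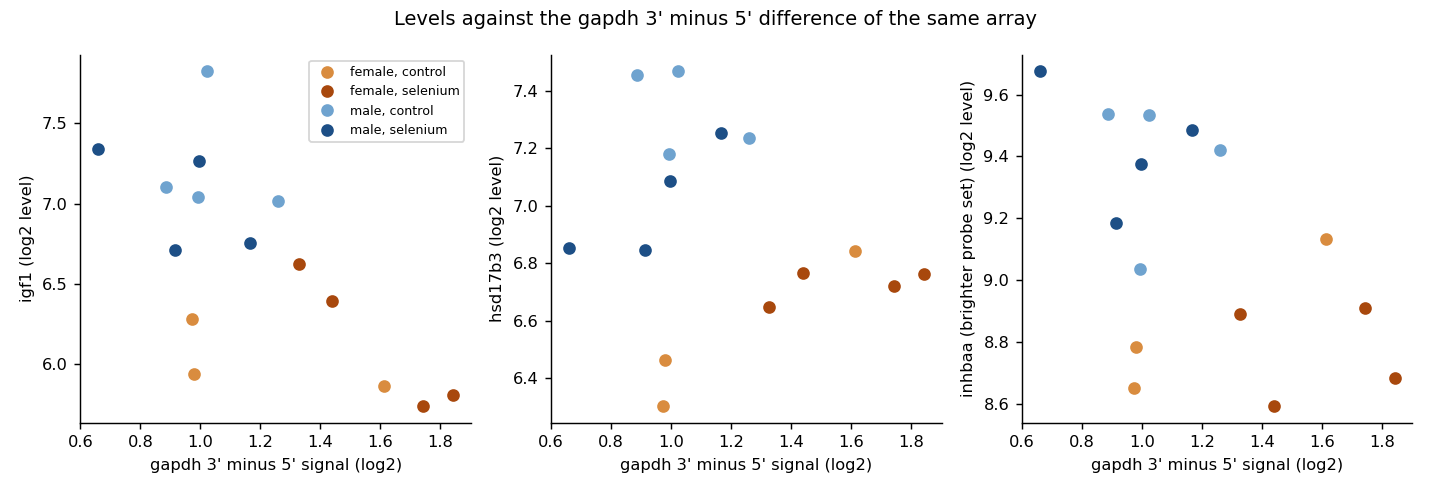
Log2 level of igf1, hsd17b3 and inhbaa (brighter probe set) against the gapdh 3′ minus 5′ difference of the same array (log2), 1 point per fish, coloured by sex and diet. Females on selenium lie to the right of all males on selenium, while control females and control males overlap on the horizontal axis.

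The muscle and retina signal of males on selenium was set beside the same differences. With the means of both lists as covariates the selenium-diet differences were -0.89 ± 0.38 (SE) for igf1, -0.29 ± 0.20 for hsd17b3 and -0.46 ± 0.23 for inhbaa. Without male selenium replicates 1, 2 and 4 together, they were -0.57 ± 0.37, -0.12 ± 0.18 and -0.41 ± 0.22. That leaves replicate 3 as the only male on selenium, assumed to vary like the other groups, and it was the lowest male of all for igf1 and hsd17b3. Its retina and lens sum was 423, but its muscle sum was 6685, so this fit does not remove the muscle signal. That muscle sum lay above those of all females (up to 3804) and of replicates 2 and 4 (4455 and 2595). In control males both sums lay within the range of the females of both diets together. On the control diet the differences were those given above in the fit without male selenium replicates 1, 2 and 4. With both lists as covariates they were -1.26 ± 0.26 for igf1, -0.78 ± 0.13 for hsd17b3 and -0.53 ± 0.16 for inhbaa. The muscle sums of control females ran from 1837 to 2367 and those of females on selenium from 2748 to 3804, without overlap. Control male replicate 2, at 2869, lay above all control females. The part of the muscle signal in the diet differences of females was not tested. The pituitary hormone genes gh1, prl, pomca, tshba and cga were dim, with summed linear levels from 128 to 590 in females and from 126 to 226 in males, and 0 of the 5 averaged lower in females. Only control female replicate 3, at 590, exceeded the males, and the next highest female sum was 205.

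No difference by diet in the 3 genes passed the test. In females igf1 differed by 0.11 on the log2 scale, selenium minus control, with a 95% confidence interval from -0.43 to 0.66, and in males by -0.23, with an interval from -0.73 to 0.28. For hsd17b3 the difference was 0.19 in females (-0.09 to 0.47) and -0.33 in males (-0.59 to -0.07). For inhbaa by its brighter probe set it was -0.09 in females (-0.42 to 0.24) and 0.05 in males (-0.26 to 0.35), and by the dimmer one -0.22 (-0.59 to 0.14) and 0.24 (-0.10 to 0.58). In males 3 of the 4 hsd17b3 levels on selenium, all but that of replicate 1, lay below all 4 controls. In the other comparisons by diet the groups overlapped too. Of all probe sets, every fish on selenium was lower than every control in 3.27% in females and 2.64% in males, and higher in 3.68% and 1.46%.

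The adjusted limma p ran from 0.724, for hsd17b3 in females, to 0.986, for the brighter inhbaa probe set in males, and for hsd17b3 in males it was 0.937, with an unadjusted p of 0.018. The exact two-sided permutation p over fish was 0.0857 for hsd17b3 in males, and between 0.171 and 0.8 for the other 7 comparisons. The smallest p this test can give is 0.0571 with 3 and 4 females, which cannot pass 0.05, and 0.0286 with 4 and 4 males. Averaged over both sexes the differences were -0.06 for igf1, -0.07 for hsd17b3 and -0.02 and 0.01 for the probe sets of inhbaa. Of all probe sets limma called 0.0% in females, in males and averaged over the sexes, with 1282, 811 and 805 at an unadjusted p under 0.05. In females 5 were called without control female replicate 3 and 3 without female selenium replicate 2, and averaged over the sexes 3, 3 and 1 without control female replicate 3, control male replicate 2 and male selenium replicate 3.

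The sex difference on selenium minus that on the control diet was 0.51 ± 0.18 (SE) for hsd17b3 and 0.34 ± 0.34 for igf1, toward a smaller difference on selenium. It was -0.13 ± 0.21 and -0.46 ± 0.23 for the brighter and dimmer inhbaa probe sets, toward a larger one. For the brighter inhbaa probe set this value turned to 0.0039 without control female replicate 3, 0.071 with the muscle and retina covariates and 0.11 without male selenium replicates 1, 2 and 4. For igf1 it was 0.15 without control male replicate 3, 0.18 without female selenium replicate 3, 0.65 without the same 3 males and 0.78 with the gapdh covariate, and for hsd17b3 0.29 with that covariate. These values are made of the sex differences for which the genes were chosen and were not tested, and limma called 0.0% of all probe sets for this contrast (1298 at an unadjusted p under 0.05).

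Over all fish the 3 genes were low together in females and high together in males. Within a sex, by the brighter inhbaa probe set, r of igf1 with the other genes was below 0 in females and above 0 in males. That of hsd17b3 with inhbaa was above 0 in both. These signs rest on few fish, and some turned by the dimmer inhbaa probe set or without the fish farthest from the median. Since all 3 genes were chosen by their sex difference, the correlation is given within each sex and for deviations from the 4 group means, as a description. For igf1 and hsd17b3 Pearson's r was -0.27 in 7 females and 0.37 in 8 males, and -0.10 for the deviations of all 15 fish (Spearman's rho -0.25, 0.31 and -0.03). For igf1 and inhbaa it was -0.32 in females, 0.45 in males and 0.17 for the deviations (rho -0.43, 0.55 and 0.23). Within males control male replicate 3 was highest in both igf1 and hsd17b3, and within females the igf1 values of selenium replicates 3 and 4 stood highest. For hsd17b3 and inhbaa r was 0.41 in females, 0.20 in males and 0.53 for the deviations (rho 0.25, 0.38 and 0.53). By the dimmer inhbaa probe set r with hsd17b3 was 0.12 in females, -0.39 in males and 0.16 for the deviations (rho -0.11, -0.31 and -0.02). With igf1 the dimmer probe set had r = -0.19, 0.46 and 0.42 in the same order (rho 0.21, 0.43 and 0.28). The values share the array they were read on.

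Some of these correlations changed without the 2 fish farthest from the median. Without the 2 fish farthest from the median of igf1, r between igf1 and hsd17b3 was -0.86 in 5 females and -0.60 in 6 males, the latter turned from 0.37. Control female replicate 3 was the highest female for hsd17b3 and inhbaa and among the lowest 3 fish for igf1. For hsd17b3 and inhbaa, without the 2 fish farthest in hsd17b3, r was 0.22 in 5 females, 0.60 in 6 males and 0.40 for the deviations of 13 fish. For the deviations of females alone it turned from 0.66 to -0.51 without control replicates 2 and 3, and for those of males it was 0.43 and then 0.33. The 2 probe sets of inhbaa, which read the same gene, had r = 0.75 for the deviations of all 15 fish. Within females their r was 0.81, but it turned to -0.17 in 5 females without control replicate 3 and selenium replicate 4. Those were the 2 females farthest from the median of the brighter probe set. Within males r was 0.69, and 0.65 in 6 males without the 2 farthest.

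**Figure D4:**
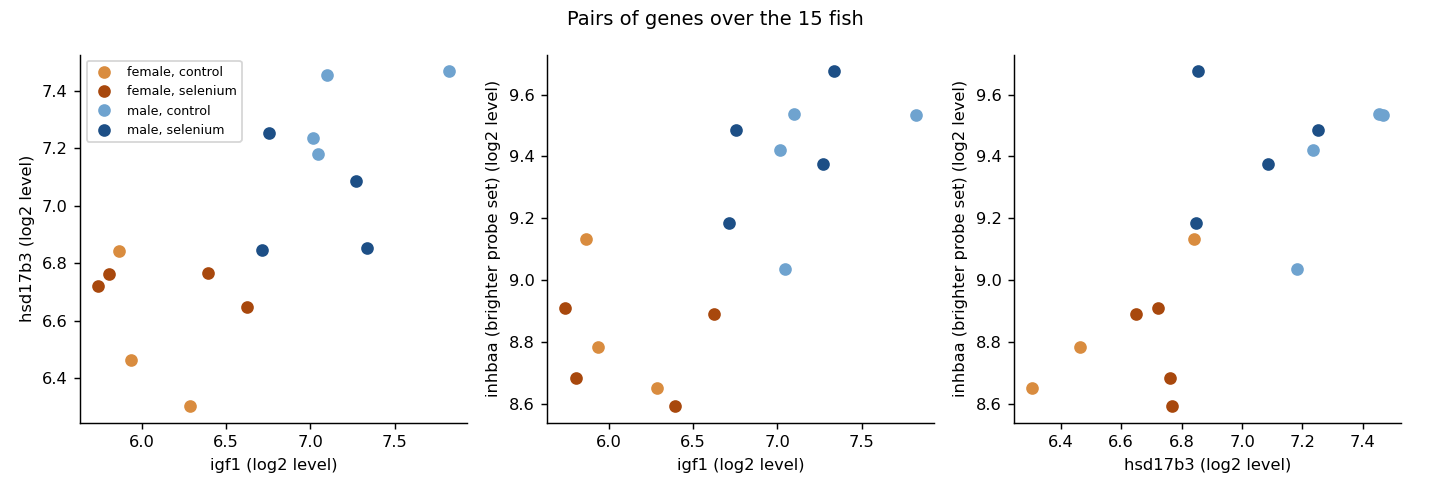
Log2 levels of igf1, hsd17b3 and inhbaa (brighter probe set) plotted in pairs, 1 point per fish, coloured by sex and diet. Females lie toward the lower left and males toward the upper right, apart along igf1 but close to each other or mixed along hsd17b3 and inhbaa, where 1 control female lies beside 1 male on selenium.

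The genes with levels most like each of the 3 over the 15 fish differed between them, by Pearson's r among probe sets with 1 gene symbol. As the 3 were chosen by their sex difference, r over the levels also favours genes that differ by sex. Every gene named in this paragraph averaged lower in females, so these likenesses are a description. Nearest to igf1 were scn3b, a sodium channel subunit (r = 0.90), hdac9b, a histone deacetylase (0.90), grb2a, an adaptor of receptor tyrosine kinases (0.89), the immediate early gene fosab (0.88), ptprk (0.87) and cavin1b (0.86). Nearest to hsd17b3 were add1, which links spectrin to actin (0.90), neff1 (0.78), irf2bp2b (0.78), rgs4, a regulator of G protein signalling (0.77), cacfd1 (0.77) and the zinc exporter gene slc30a1a (0.77). Nearest to inhbaa were dio2, ccng2, a cyclin (0.87), atp6v1f, a subunit of the proton pump of vesicles (0.85), ubtd2 (0.84), neff1 (0.80) and rgs4 (0.79). The names neff1 and rgs4 occur for both hsd17b3 and inhbaa, rgs4 by different probe sets.

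The deiodinase gene dio2, whose product makes the active thyroid hormone, followed inhbaa most closely, at r = 0.93 over 15 fish. It read 7.12 on average in females and 8.17 in males, a log2 difference of -1.05 ± 0.12 (SE). As dio2 was named for its likeness to a gene chosen by its sex difference, this is a description too. The 3 genes ranked behind the genes named above for one another. Counted among all probe sets tested, with or without a symbol, inhbaa was number 172 and hsd17b3 number 358 by likeness to igf1. By likeness to hsd17b3, on the same count, inhbaa was number 14 and igf1 number 31. With the group means taken out, the nearest to igf1 were kalrnb (r = 0.94), hdx (0.93), rcor2 (0.93), trip12 (0.91), smad7 (0.90) and cops5 (0.90). Nearest to hsd17b3 were cldn5a (0.82), eef2k (0.80), cdr2l (0.78), cxcl12b (0.77), ftr14 (0.77) and stmn4 (0.77), and nearest to inhbaa slc26a5 (0.91), keap1a (0.90), pfkfb4b (0.88), pik3r3a (0.87), usp5 (0.85) and klf9 (0.85). No gene was shared between these lists of 6, nor with those over the levels.

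Among other genes of the insulin-like growth factor and growth hormone axis, 0 of 21 measured passed the test between the sexes averaged over the diets, against 0.142% of all probe sets. An unadjusted limma p under 0.05 was found for 1 of the 21, against 2296 of all 15502 probe sets. The median difference, female minus male, was -0.01, with 12 genes below 0, where the median over all probe sets was 0.0023. The receptor gene igf1rb stood at -0.31 ± 0.12 (SE, n = 7 and 8; limma adjusted p = 0.264), but its other, dim probe set at 0.02. The insulin receptor substrate gene irs2a stood at -0.70 ± 0.35, the ligand gene igf2b at -0.17 ± 0.10 and the insulin receptor gene insrb at -0.08 ± 0.06. The growth hormone gene gh1 averaged 5.40 ± 1.49 (SD) in females and 5.05 ± 0.63 in males. On the control diet these means were 6.09 ± 2.31 and 5.24 ± 0.90, and on selenium 4.88 ± 0.20 and 4.85 ± 0.13. The gene stat5a, which carries the growth hormone signal to the nucleus, differed by -0.05. The 5 binding protein genes stood between -0.04 for igfbp3 and 0.25 for igfbp5b. With the gapdh covariate the values of igf1rb, insrb and stc2a turned to 0.018, 0.011 and 0.081.

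Of 28 other genes of steroid synthesis and conversion, 0 passed between the sexes, against 0.142% of all probe sets, at a list median of 0.02. Where 2296 of all 15502 probe sets had an unadjusted limma p under 0.05, 2 genes of this list did. Those were fdx1, a ferredoxin that hands electrons to mitochondrial enzymes, at -0.23 ± 0.07 (SE, n = 7 and 8; limma adjusted p = 0.166), and cyp19a1b, the brain aromatase that turns androgens into estrogens, at 0.19 ± 0.07 (0.264). Next were cyp17a1, which makes androgen precursors, at 0.22 ± 0.11, hsd20b2 at 0.33 ± 0.17, hsd11b1la at 0.17 ± 0.09 and the sulfotransferase gene sult2st1 at -0.36 ± 0.19. With the gapdh covariate cyp17a1 turned to -0.019. Other hydroxysteroid dehydrogenases of the family of hsd17b3 stood at -0.12 for hsd17b4, -0.05 for hsd17b8 (0.52 by its other, dim probe set), 0.05 for hsd17b10, 0.09 for hsd17b12a and -0.02 for hsd17b12b.

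Of 19 steroid receptor and reproductive genes, 0 passed, against 0.142% of all probe sets, at a list median of -0.05. An unadjusted limma p under 0.05 was found for 2 of them, against 2296 of all 15502 probe sets. The vasopressin family gene avp stood at 0.33 ± 0.12 (SE, n = 7 and 8; limma adjusted p = 0.200) and the estrogen receptor gene esr1 at 0.19 ± 0.09 (0.336). The gonadotropin releasing hormone genes stood at 0.37 ± 0.21 for gnrh3 and -0.63 ± 0.37 for gnrh2, and fshr and pgrmc2 at -0.10 ± 0.06 and -0.27 ± 0.16. With the gapdh covariate the averaged value of pgrmc2 turned to 0.0089. On the control diet gnrh3 stood at 0.90 ± 0.31, gnrh2 at -1.24 ± 0.54 and pgrmc2 at -0.60 ± 0.24. On selenium they stood at -0.16 ± 0.29, -0.03 ± 0.50 and 0.06 ± 0.22. On the control diet alone 5 of the 19 had an unadjusted limma p under 0.05 and 0 passed. Of all 15502 probe sets 890 had such a p on that diet.

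Of 25 other genes of the activin and transforming growth factor beta pathway, 0 passed averaged over the diets, against 0.142% of all probe sets. The list median was -0.03 with 16 below 0. An unadjusted limma p under 0.05 was found for 3 of the 25, against 2296 of all 15502 probe sets. The sister subunit gene inhbb stood at 0.04, the activin receptor genes acvr1ba and acvr2ba at -0.14 ± 0.07 (SE) and -0.10, and the antagonist gene fsta, follistatin, at -0.07. Of the transducers named above for activin, smad2 stood at 0.04 averaged over the diets. Its difference was -0.22 ± 0.10 on the control diet (limma adjusted p = 0.850) and 0.31 ± 0.10 on selenium (0.120). The gene smad3b stood at 0.12 ± 0.11 on the control diet (limma adjusted p = 0.908). Over the fish of both diets together, its mean level was instead lower in females than in males. Within females smad3b differed by -0.26 ± 0.11, selenium minus control (limma adjusted p = 0.565). Among other signal transducers, averaged over the diets, smad5 stood at 0.17 ± 0.08, smad1 at -0.56 ± 0.25 and the inhibitor smad6a at 0.11 ± 0.07. The receptor gene tgfbr2b stood at -0.17 ± 0.11. With the gapdh covariate smad1 turned to 0.048, and the other probe set of tgfbr2b read 0.043. Apart from the 3 genes, on selenium alone 0 of 21, 0 of 28, 0 of 19 and 1 of 25 genes passed in the 4 lists. Of all probe sets 1.05% passed, and nothing is read from a single call. The gene called was mstnb, which encodes myostatin, a ligand that limits muscle growth. It was lower in females by a log2 difference of -0.63 ± 0.13 (limma adjusted p = 0.0459).

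The call of mstnb held without 3 of the 15 fish left out singly, namely control female replicates 2 and 3 and female selenium replicate 3. Without any 1 of the other 12 the adjusted p lay between 0.0505 and 0.124, at differences from -0.67 to -0.52. It ended with the muscle and retina covariates (limma adjusted p = 0.527 at a difference of -0.72), the pituitary covariate (0.0708 at -0.63), the gapdh covariate (0.482 at -0.53) and without male selenium replicates 1, 2 and 4 (0.736 at -0.60). By diet limma called 0 genes of the 4 lists in females, in males or averaged over the sexes. Among all 15502 probe sets 1282 had an unadjusted limma p under 0.05 in females and 811 in males. In the lists there were in females 0 of the growth axis, 3 of steroid synthesis, 4 of the receptor and reproductive list and 4 of the activin list. In males the list genes were 0, 0, 1 and 5 in the same order. Those of smallest limma p were mstnb in females, at -0.57 ± 0.14 (SE, n = 4 and 3; adjusted p = 0.377), skib in males, a repressor of Smad signalling, at -0.21 ± 0.07 (0.937), and oxt, the oxytocin family gene, averaged over the sexes, at -0.71 ± 0.22 (0.742).

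**Figure D5:**
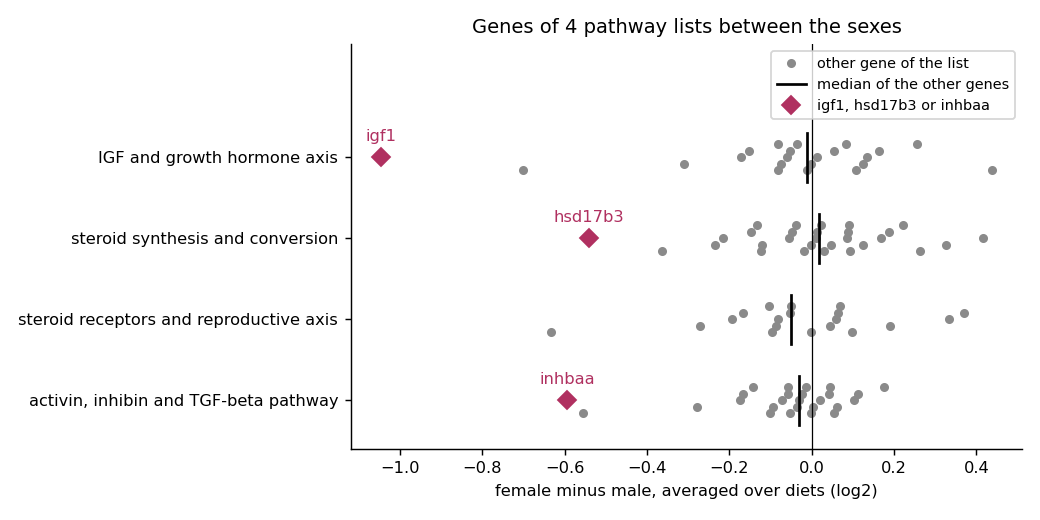
Log2 difference, female minus male averaged over the diets, of each measured gene of 4 pathway lists, read by its brightest probe set (grey points, with the median of each list as a black bar). Red diamonds mark igf1, hsd17b3 and inhbaa, which were chosen for this difference, and the list medians lie between -0.05 and 0.02.

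The genes beside igf1, hsd17b3 and inhbaa in the genome were examined by their order in RefSeq, which places the 3 genes on different chromosomes. Of the 5 protein-coding genes on either side of each, 12 of 30 were measured, 6 near igf1, 4 near hsd17b3 and 2 near inhbaa. With limma 0.142% of all 15502 probe sets passed between the sexes and 2296 had an unadjusted p under 0.05. Of the 12 genes 0 passed and 1 had an unadjusted p under 0.05. This was slc20a2, a phosphate transporter beside hsd17b3, at -0.22 ± 0.09 (SE, limma adjusted p = 0.283). The nearest measured genes on either side of igf1, bcat1 and nup37, stood at -0.04 ± 0.07 and 0.08 ± 0.13.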

How the data were processed

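Each array read the whole-brain RNA of 1 fish with Affymetrix probes. The deposited values are log2 levels; per the submitters' processing notes, the authors made them with RMA in affy, which corrects background, equalises the distributions of the arrays and summarises probes. The sources used here give no versions. From 15617 probe sets, 115 manufacturer controls were left out, and none for low signal. Of the rest 10795 had 1 gene symbol, 135 several and 4572 none.

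Group means were modelled over all arrays with limma 3.58.1 (R 4.3.3), with two-sided Benjamini-Hochberg adjustment over 15502 probe sets, after tests on simulated data. Exact permutation tests compared single probe sets by diet. Genes of lists were read by their brightest probe set, and RefSeq (GRCz12tu) served for names and gene order.

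The 3 genes, the lists and the naming rule were chosen with earlier results of these data known. Named were the 3 genes, in each list the genes called and those of smallest p (up to 6 by sex, 3 by diet), and the 6 genes most like each. Their relatives, and genes beside them, were named by role or place. Labels name no batch and number the fish in 1 series over all groups, males from 98 to 121 and females from 102 to 136, with no number shared; what the number marks is not stated. P-values measure the spread between fish. Promoter motifs, though planned, were not searched. Alternatives were other scalings, filters, variance models, probe sets and covariates, and leaving out fish.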

Additional observations from a re-analysis of the deposited data

Results flagged for a closer look

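In 1 of 12 group values checked for a fish far from its group, igf1 in control male replicate 3 stood out. Its level of 7.82 lay 0.722 above the next highest, which is 0.894 of the range of the 4 control males, above Dixon's critical value of 0.829. Chance marks about 5% of such groups. Without this fish the igf1 difference on the control diet was -1.02, and that averaged over the diets -0.95.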

How the results depend on the processing

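Over 25 fits, the sex differences of igf1, hsd17b3 and the brighter inhbaa probe set stayed below 0 on each diet and averaged over both. Nothing is read from this steady sign, since the genes were chosen by these differences and the fits reuse the same fish. Leaving out a fish of either diet also keeps the difference on the other diet unchanged. Averaged, they ran from -1.13 to -0.70, from -0.72 to -0.46 and from -0.67 to -0.47. The 2 fits chosen after seeing the data were the gapdh covariate and the one without male selenium replicates 1, 2 and 4. Values that changed are given below by fit, and the cause was not tested. Centring arrays on their medians gave 0.0026 for the diet effect on the brighter inhbaa probe set averaged over sexes, and repeated quantile normalisation -0.0033 on the dimmer one. Calls between the sexes were 283 on selenium without the dimmest probe sets, where fewer were tested, and averaged over the diets 42 with an intensity trend and 57 with array weights.

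With the muscle and retina covariates the diet effect on inhbaa in males was -0.21, and averaged over sexes -0.032 by the dimmer probe set. Calls were then 0 between the sexes on selenium by limma, 1 averaged over the diets, and 1 for diet averaged over sexes. With the pituitary covariate 26 probe sets were called between the sexes on selenium and 11 averaged over the diets. With the gapdh covariate the sex differences on selenium were -0.30 for igf1 and -0.57 for hsd17b3, and -0.72 for hsd17b3 averaged over the diets. The averaged diet effects were 0.071 for igf1 and -0.00367 for the dimmer inhbaa probe set, and 1 and 5 probe sets were called between the sexes on selenium and averaged. Under the same covariate igf1rb stood at 0.018, insrb at 0.011, stc2a at 0.081, cyp17a1 at -0.019, pgrmc2 at 0.0089 and smad1 at 0.048 between the sexes.

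Without male selenium replicates 1, 2 and 4, the sex difference of inhbaa on selenium was -0.41. The diet effects were -0.20 on inhbaa in males and -0.024 on its dimmer probe set averaged over sexes. Calls between the sexes were then 12 on selenium and 7 averaged, by diet 1 in females, 15 in males and 17 averaged, and 3 for the difference between diets in the sex difference. By the dimmer probe set of inhbaa the sex difference was -0.055 on the control diet and -0.29 averaged, and the averaged diet effect 0.0083. Other probe sets of igf1rb and tgfbr2b read 0.023 and 0.043.

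Leaving out 1 fish at a time gave the following ranges. The diet effect on igf1 ran from -0.048 to 0.25 in females and from -0.14 to 0.039 averaged over sexes, and that on hsd17b3 averaged from -0.13 to 0.0074. For the brighter inhbaa probe set it ran from -0.19 to 0.053 in females, from -0.067 to 0.13 in males and from -0.077 to 0.051 averaged, and for the dimmer one from -0.055 to 0.076 averaged. The sex difference of the dimmer probe set on the control diet ran from -0.19 to 0.063. Calls between the sexes numbered 0 to 6 on the control diet, 2 to 328 on selenium and 2 to 64 averaged, and calls by diet 0 to 5 in females, 0 in males and 0 to 3 averaged.

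No paired analysis was possible because each fish carries a number of its own and the labels tie no fish across groups. The dimmer probe set of inhbaa and the dim ones of the axis genes limit what a small difference can show. Ranked by level on each array, igf1 had its median at percentile 35 in females and 48 in males. For hsd17b3 it was 44 and 49, and no limit of detection was set.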

Other observations

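Marker lists of brain cell types gave a view of the samples in which the 3 genes were read. All 5 measured oligodendrocyte genes averaged lower in females, at a list mean of 9.94 ± 0.09 log2 units (SD, n = 7) against 10.11 ± 0.06 (n = 8) in males. Of 9 genes of microglia and leukocytes 7 averaged higher in females, at 8.44 ± 0.31 against 8.19 ± 0.21, as did 7 of 9 radial glia genes, at 11.57 ± 0.07 against 11.49 ± 0.07. Of 11 neuronal genes 7 averaged lower in females, at 11.97 ± 0.06 against 12.05 ± 0.06. Among all probe sets 49.3% averaged lower in females. In each of these lists the fish of both sexes overlapped, and limma called 0 of their genes, read by the brightest probe set, between the sexes. Another probe set of the neuronal gene elavl3 was called, at -0.79 (limma adjusted p = 0.0366). Before adjustment the limma p was under 0.05 for 2296 of all 15502 probe sets. In the lists it was so for 3 neuronal genes, 2 of oligodendrocytes and 3 of microglia and leukocytes. Of radial glia it was so for 1, which was cyp19a1b, also in the list of steroid synthesis. Over the deviations of 15 fish from their group means, the mean of 11 neuronal genes correlated with igf1 at r = 0.60, with hsd17b3 at -0.38 and with inhbaa at -0.43. Other lists reached values as high: the mean of 13 ovary and testis genes, dim in these brains, correlated with igf1 at 0.72 and with hsd17b3 at -0.55, and that of 6 vessel genes with hsd17b3 at 0.56 and with inhbaa at 0.55. The gapdh 3′ minus 5′ value correlated with the same deviations at -0.59 for igf1, 0.61 for hsd17b3 and 0.21 for inhbaa. The part of RNA quality in the correlations with the lists was not tested. These are descriptions over the same arrays, and the part of cell makeup in the sex differences was not tested.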
